A study of Mus musculus with 10 samples.

Results

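Laminins, nidogens and perlecan, the non-collagen framework proteins of the basement membrane, were followed in RNA of sorted mouse lung cells. The 10 genes were chosen by name, as 4 laminin alpha chains (Lama2, Lama3, Lama4 and Lama5), 2 beta chains (Lamb1 and Lamb2), 1 gamma chain (Lamc1), the nidogens Nid1 and Nid2, and Hspg2, which encodes perlecan. They are 10 of the 24538 genes in the count files, and all 10 had enough counts to be tested. RNA was sequenced from 10 libraries of wild type C57BL6/J mice aged 8 to 10 weeks, 5 from normal lung and 5 from lung metastases. The metastases grew from E0771-LG, a line of mouse mammary tumour cells, injected into a tail vein of females of the same strain at an age of 6 to 8 weeks. Lesions under 1 mm across were dissected, and those of 2 to 4 mice went into a pool, while normal lungs were handled in parallel with no injection stated. Both groups were sorted by flow cytometry for CD31, an adhesion molecule of endothelial cells, and against CD45, a protein of leukocytes. The labels number 5 replicates in each group without saying that they come from separate animals or pools, so p-values measure the spread between these libraries only.

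Laminins are trimers of an alpha, a beta and a gamma chain that polymerise into the sheet on which cells rest. Nidogens bind the gamma chain and link that sheet to collagen IV, and perlecan, a large proteoglycan with heparan sulfate chains, binds nidogen and growth factors. In vessels the sheet lies under the endothelium, and its alpha chain makeup is known to differ between vessel types and to influence the passage of leukocytes.

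Lamb1 and Hspg2 were higher in metastases, with log2 fold changes of 6.27 and 4.24, and none of the 10 genes was lower. Lamb1 was at 3.18 ± 1.08 CPM in normal lung and at 246 ± 122 CPM in metastases (n = 5 libraries each, SD). Hspg2 was at 13.8 ± 18.2 and 262 ± 234 CPM (SD, n = 5 each). CPM are counts scaled to a common depth (counts-per-million) on libraries scaled by TMM, fold changes are metastases minus normal lung on the log2 scale, and a gene is called where its edgeR adjusted p over all tested genes is under 0.05. Of all 11823 tested genes, 12.0% were called higher, 8.22% lower and 20.2% in either direction, beside 2, 0 and 2 of these 10. At an unadjusted p under 0.05 the counts were 3 higher and 1 lower, and DESeq2 called 2 higher and 0 lower. Over all 11823 genes those counts were 2096 and 1623 at the unadjusted p, and 1880 and 1322 with DESeq2. The median log2 fold change was 0.73 over the 10 genes and 0.06 over all tested genes. CPM ranges of the groups did not overlap for the same 2 genes, both higher in metastases. Over all tested genes this held for 8.50% in that direction, 6.17% in the other and 14.7% together.

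**Figure D1:**
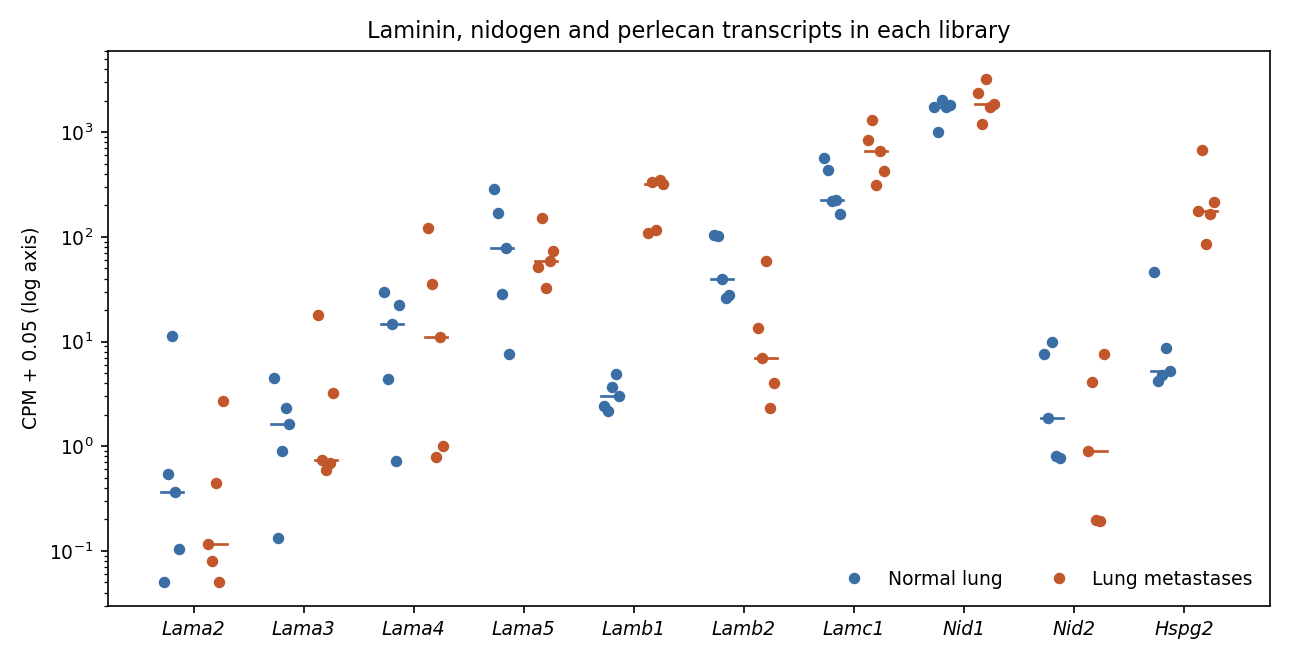
CPM plus 0.05 of the 10 genes on a log axis, 1 point per library and a line at the median of each group, for 5 normal lung (blue) and 5 metastasis (orange) libraries. The points of Lamb1 and of Hspg2 are separate between the groups, while those of the other 8 genes overlap.

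The libraries held 41004704 to 79710581 gene counts in normal lung and 21677429 to 54266459 in metastases. All 19 pan-endothelial markers had counts in each of the 10 libraries, but 16 were lower in metastases, and their summed level was 12496 to 24824 CPM in normal lung and 1155 to 7461 CPM in metastases. Pecam1, which encodes CD31, was at 2415 ± 864 and 644 ± 508 CPM (SD, n = 5 each), and Ptprc, which encodes CD45, at 17.8 ± 7.31 and 121 ± 25.6 CPM. Summed fibroblast markers were at 6.43 to 78.9 CPM in normal lung and 350 to 922 CPM in metastases, with 6 of 7 tested genes higher. Col3a1 and Col1a1 had the highest mean CPM of them, and Tcf21 was at 0 in all libraries. Summed macrophage markers were at 46.6 to 211 and 927 to 1803 CPM, with 4 of 7 tested genes higher. Lyz2 and Itgam led in mean CPM, at 723 and 315 CPM in metastases, while Cd68, Csf1r and Mrc1 were not called. Platelet markers, led by Ppbp and Pf4, spanned 182 to 885 and 670 to 12114 CPM, with 2 of 5 higher. Mural cell markers, of which Myh11 was the highest in normal lung and Pdgfrb in metastases, spanned 11.8 to 63.0 and 12.7 to 102 CPM, with 1 of 5 tested genes lower, none higher and Cspg4 at 0 in all metastasis libraries. Epithelial markers, of which Scgb1a1 and Sftpb had the highest mean over all 10 libraries, spanned 9.23 to 755 and 23.5 to 170 CPM, with 1 of 6 tested genes higher and 1 lower. The lower gene was Scgb1a1, which reached 752 CPM in normal lung (log2 fold change -5.74, edgeR adjusted p 0.00245). The higher gene was Krt8, at a mean of 0.245 CPM in normal lung and 21.9 CPM in metastases (6.47, edgeR adjusted p 0.000497), with no overlap of the groups. Krt8 is named to complete these counts, after its values were seen. Mesothelial markers, led by Upk3b and Lrrn4, spanned 0.0235 to 0.612 and 0.248 to 19.2 CPM, and none had enough counts to be tested. In bulk RNA of this kind, fewer cells of a type and less RNA per cell cannot be told apart.

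The stretches just before the annotated starts of the 2 beta chain genes and of Hspg2 are shown because the levels of these 3 genes set the contrasts described here, 2 called genes and the beta chain that was not called. They come from RefSeq on GRCm38.p6, in which promoters of 6 of the 10 genes were matched, and each is cut to end before the GENCODE M21 start as well. Lamb1 lies at chr12:31265234-31329644 on the plus strand and its stretch at chr12:31265043-31265233. Lamb2 lies at chr9:108479736-108490530 on the plus strand and its stretch at chr9:108479612-108479735. Hspg2 lies at chr4:137468769-137570630 on the plus strand and its stretch at chr4:137468553-137468768. Capitals mark the GC box GGGCGG on either strand.
Lamb1: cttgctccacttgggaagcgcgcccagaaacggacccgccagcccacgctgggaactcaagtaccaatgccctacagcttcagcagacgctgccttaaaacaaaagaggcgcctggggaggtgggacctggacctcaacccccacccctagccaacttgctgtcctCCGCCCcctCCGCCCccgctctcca
Lamb2: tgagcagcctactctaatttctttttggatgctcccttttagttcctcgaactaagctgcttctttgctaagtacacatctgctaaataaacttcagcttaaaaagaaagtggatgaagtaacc
Hspg2: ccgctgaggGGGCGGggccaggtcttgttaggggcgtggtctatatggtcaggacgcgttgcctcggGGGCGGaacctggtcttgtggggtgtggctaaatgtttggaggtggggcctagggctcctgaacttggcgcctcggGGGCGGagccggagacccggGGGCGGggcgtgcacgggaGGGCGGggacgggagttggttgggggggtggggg
The Lamb1 stretch has 191 bases, 63.9% of them G or C, with 2 GC boxes, and 23.1% of all 32851 promoter windows held at least 1 GC box in a stretch of that length. In the 216 bases of Hspg2, 70.8% G or C, there are 5 GC boxes, and 27.9% of windows held at least 1. The 124 bases of Lamb2 are 37.9% G or C and have no GC box, against 13.3% of windows that held one. In each window the stretch compared was the part farthest upstream of the RefSeq start. A shorter stretch therefore ends farther from that start. CCAAT on either strand was found in Lamb1 alone of the 3, where 26.9% of windows held it, and neither TATAAA nor TGANTCA was found in any of them. These matches describe letters only, and no measurement here shows binding.

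Among the beta chains, Lamb1 read 2.37, 2.12, 3.67, 4.80 and 2.94 CPM in normal lung replicates 1 to 5 and 109, 335, 116, 346 and 323 CPM in metastasis replicates 1 to 5. The lowest metastasis library was thus far above the highest normal one, and metastases 1 and 3 formed the lower end of their group. Its log2 fold change was 6.27 ± 0.60 (SE), 77.4-fold, with an edgeR adjusted p of 1.08e-07, and 97.9% of tested genes ranked below it by log2 fold change. With metastases 4 and 5 left out, the libraries with the lowest endothelial marker level, it was 5.83 (edgeR adjusted p 8.10e-06). The summed fibroblast and macrophage markers were higher in the same 5 metastasis libraries. So was Krt8, the 1 higher gene of 6 tested epithelial markers, while Scgb1a1 of that list was lower. The epithelial sums of the groups overlapped. The part of these markers in this result was not tested.

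Lamb2, the other beta chain, which is typical of mature vessel and kidney basement membranes, read 105, 101, 39.4, 26.2 and 28.0 CPM in normal lung and 13.4, 6.92, 58.2, 2.26 and 3.95 CPM in metastases. Metastasis replicate 3 lay above 3 of the normal libraries, and the other 4 metastasis libraries lay below all of them. The log2 fold change was -1.82 ± 0.85 (SE), with a 95% interval of -3.48 to -0.16 before adjustment and an edgeR adjusted p of 0.139, so Lamb2 was not called. Without metastasis replicate 3 it was -3.17 (edgeR adjusted p 0.0076), and on the authors' FPKM, limma gave -1.97 on the log2(FPKM + 1) scale (adjusted p 0.0355). Normal libraries 1 and 2, the 2 with the highest Lamb2, also had the highest share of the ribosomal precursor Rn45s in their group, 3.51 and 2.83% against 0.408 to 0.469% in the other 3. Metastasis replicate 2, at 6.92 CPM of Lamb2, had the highest Rn45s share of all 10 libraries, 4.61%. Normal libraries 1 and 2 also had the most gene counts of their group, 75529637 and 79710581. Whether the Rn45s share or the depth bears on Lamb2 was not tested. In libraries 3 to 5 alone the log2 fold change was -0.56 (edgeR adjusted p 0.789).

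The ratio of the 2 beta chains within a library does not depend on how libraries are scaled. FPKM, which divide by transcript length and so can be set side by side between genes, gave Lamb1 to Lamb2 ratios of 0.0190, 0.0198, 0.0896, 0.148 and 0.0653 in normal lung and 5.11, 35.7, 1.97, 94.8 and 50.5 in metastases. In each normal library Lamb2 was the more abundant beta chain, and in each metastasis library Lamb1 was. Lamb1 made up 6.21 ± 4.63% of the summed FPKM of both in normal lung, between 1.87 and 12.9%, and 88.8 ± 14.1% in metastases, between 66.3 and 99.0% (SD, n = 5 each). The mean log2 ratio of counts was -4.03 ± 1.41 in normal lung and 4.64 ± 2.58 in metastases (n = 5 each, SD), a difference of 8.67. An exact permutation test over every split of 5 against 5, two-sided, gave p = 0.00794, the smallest it can give, and 0.0238 after Benjamini-Hochberg adjustment over the 3 ratios compared. Leaving out any 1 library moved the difference between 8.02 and 9.58 (exact permutation test, adjusted p 0.0238 each time).

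**Figure D2:**
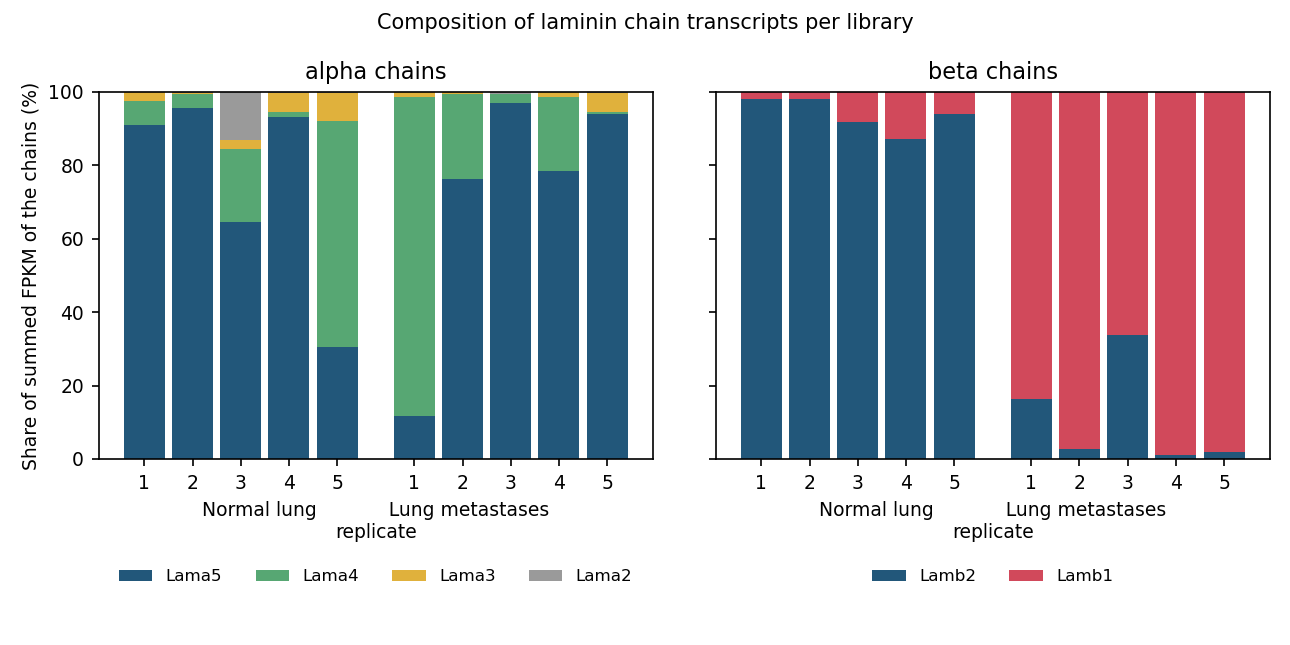
Stacked bars with the share, in percent, of each of 4 alpha chains (left) and 2 beta chains (right) in the summed FPKM of its kind, 1 bar per library. Lamb1 takes 1.87 to 12.9% of the beta chains in normal lung and 66.3 to 99.0% in metastases, while Lama5 leads the alpha chains in 8 of 10 libraries.

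Lamc1, the gamma chain shared by most laminins of vessels, read 566, 435, 219, 223 and 167 CPM in normal lung and 840, 1306, 310, 657 and 425 CPM in metastases. The groups overlapped in the span from metastasis replicates 3 and 5 to normal replicates 1 and 2. The gene, at chr1:153218922-153332786 on the minus strand, had a log2 fold change of 1.14 ± 0.43 (SE), a 95% interval of 0.29 to 1.98 before adjustment and an edgeR adjusted p of 0.0651, just short of a call. It passed without normal replicate 1 (1.40, edgeR adjusted p 0.0356), without metastasis replicate 3 (1.31, 0.0235) and without metastasis replicate 5 (1.27, 0.0481). It also passed with libraries scaled by their totals (1.41, edgeR adjusted p 0.0142), a scaling that moved the median of all genes by 0.25, and with a term for libraries 1 and 2 against 3 to 5 (1.16, 0.0111). Lamc1 was above 0 in all 23 alternatives but passed in only 7 of them. Without metastasis replicate 2 it was 0.81 (edgeR adjusted p 0.198), and without normal replicate 5 it was 0.94 (0.177).

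The alpha chains, which carry the main binding sites for integrins and dystroglycan, showed no call. Lama5, at chr2:180176373-180225859 on the minus strand, read 286, 171, 28.2, 77.5 and 7.54 CPM in normal lung and 51.4, 152, 32.7, 58.1 and 73.0 CPM in metastases. Normal lung held both the highest and the lowest libraries, so its range enclosed that of metastases. The log2 fold change was -0.63 ± 0.69 (SE), with a 95% interval of -1.98 to 0.72 before adjustment and an edgeR adjusted p of 0.583. It was 0.01 without normal replicate 1, the highest library, -0.47 without normal replicate 2, and 0.52 in libraries 3 to 5 alone.

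Lama4, the alpha chain of laminins found under most endothelia, lies at chr10:38965515-39110188 on the plus strand. Its values were 29.5, 4.32, 14.6, 0.678 and 22.4 CPM in normal lung and 123, 35.6, 0.744, 11.1 and 0.952 CPM in metastases. Metastases 3 and 5 were as low as the lowest normal library and metastasis replicate 1 was the highest of all 10. That library also had the highest summed platelet markers, 12114 CPM, and the highest pan-endothelial sum of its group, 7461 CPM, and whether these bear on Lama4 was not tested. The log2 fold change of 1.26 ± 1.13 (SE) had an edgeR adjusted p of 0.489, and it was -0.27 without metastasis replicate 1.

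Lama2 and Lama3, chains of muscle and of epithelial basement membranes, were the lowest of the 10 in mean FPKM in both groups. Lama2, at chr10:26980036-27619758 on the minus strand, read 0, 0.490, 11.2, 0.313 and 0.0540 CPM in normal lung and 0.0677, 0.0306, 0.397, 0 and 2.64 CPM in metastases. Only normal replicate 3 and metastasis replicate 5 exceeded 1 CPM, and the 0 counts of normal replicate 1 and metastasis replicate 4 allow up to 3 counts, 0.0459 and 0.0871 CPM, by counting error alone. The log2 fold change was -1.94 ± 1.80 (SE, edgeR adjusted p 0.508). It was 1.50 without normal replicate 3, the library that also had the highest summed epithelial markers, 755 CPM. Lama3, on chromosome 18 from 12333819 to 12583013 on the plus strand, read 4.46, 0.0837, 0.847, 2.27 and 1.57 CPM in normal lung and 18.1, 0.689, 0.546, 0.639 and 3.21 CPM in metastases. Metastasis replicate 1 stood above all others, and the log2 fold change of 1.33 ± 1.41 (SE, edgeR adjusted p 0.572) became -0.56 without it. On the FPKM scale the same library was at 0.392, below the 0.815 of normal replicate 1, and the mean of Lama3 went from 0.396 ± 0.309 in normal lung to 0.262 ± 0.248 FPKM in metastases (n = 5 each, SD), the opposite order to CPM.

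Within the summed FPKM of these 4 alpha chains, Lama5 took 75.0 ± 27.9% in normal lung and 71.5 ± 34.7% in metastases (n = 5 each, SD). Lama4 took 18.6 ± 25.1% and 26.6 ± 35.3%, and led in normal replicate 5, where the FPKM ratio of Lama4 to Lama5 was 2.03, and in metastasis replicate 1, where it was 7.52. Lama5 led in the other 8 libraries. The mean log2 ratio of Lama4 to Lama5 counts was -2.95 ± 3.35 in normal lung and -2.97 ± 2.98 in metastases (n = 5 each, SD), a difference of -0.02 with an exact permutation p of 0.984, two-sided, also 0.984 after adjustment. A spread of about 3 log2 units within each group leaves large differences undetectable with 5 libraries each.

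Nid1, the main nidogen, was the most abundant of the 10 genes in each library on the FPKM scale. It lies at chr13:13437551-13512269 on the plus strand and read 1747, 1010, 2045, 1725 and 1816 CPM in normal lung and 2380, 1191, 3211, 1751 and 1858 CPM in metastases. Replicate 2 was the lowest library in both groups, and 3 of the 5 metastasis libraries fell within the normal range. The log2 fold change was 0.32 ± 0.34 (SE), with a 95% interval of -0.35 to 0.99 before adjustment and an edgeR adjusted p of 0.58. Its mean level was 311 ± 86.7 FPKM in normal lung and 384 ± 193 FPKM in metastases (n = 5 each, SD), the 127th and the 83rd highest mean of 24460 genes.

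Nid2, the second nidogen, at chr14:19751265-19811787 on the plus strand, read 7.58, 1.79, 9.91, 0.756 and 0.729 CPM in normal lung and 0.846, 4.10, 0.149, 0.145 and 7.58 CPM in metastases. No order between the groups was visible, and the log2 fold change was -0.69 ± 1.39 (SE, edgeR adjusted p 0.779). Of its exonic bases 8.45% overlap Rtraf on the opposite strand, and since the use of strand in counting is not given in the sources used here, a part of these counts may belong to Rtraf. Such overlaps with predicted genes cover 3.86% of Lama2, 1.83% of Lama3 and 2.06% of Nid1, and none was found for the other 6 genes. Nid1 made up 99.1 to 99.9% of the summed nidogen FPKM in normal lung and between 99.35 and 99.995% in metastases. The mean log2 count ratio of Nid1 to Nid2 was 9.41 ± 1.72 in normal lung and 11.03 ± 2.89 in metastases (n = 5 each, SD), a difference of 1.62 that did not pass (exact permutation p 0.294, adjusted 0.440, two-sided).

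Hspg2 read 46.2, 4.17, 4.78, 8.71 and 5.24 CPM in normal lung and 175, 673, 84.8, 164 and 214 CPM in metastases. Each metastasis library exceeded each normal library, with normal replicate 1 the highest of its group and metastasis replicate 2 the highest of all. Its log2 fold change was 4.24 ± 0.74 (SE), 18.9-fold, with an edgeR adjusted p of 0.000247. It rose to 5.48 without normal replicate 1 (edgeR adjusted p 1.31e-05) and was 3.57 without metastasis replicate 2 (0.00193), the library with the highest summed fibroblast markers, 922 CPM. In libraries 3 to 5 alone it was 4.61 (edgeR adjusted p 0.00137). The fibroblast and macrophage sums were higher in the same 5 metastasis libraries. Krt8 was higher there as well, but the epithelial sums overlapped between the groups and Scgb1a1 was lower. The part of these markers was not tested.

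**Figure D3:**
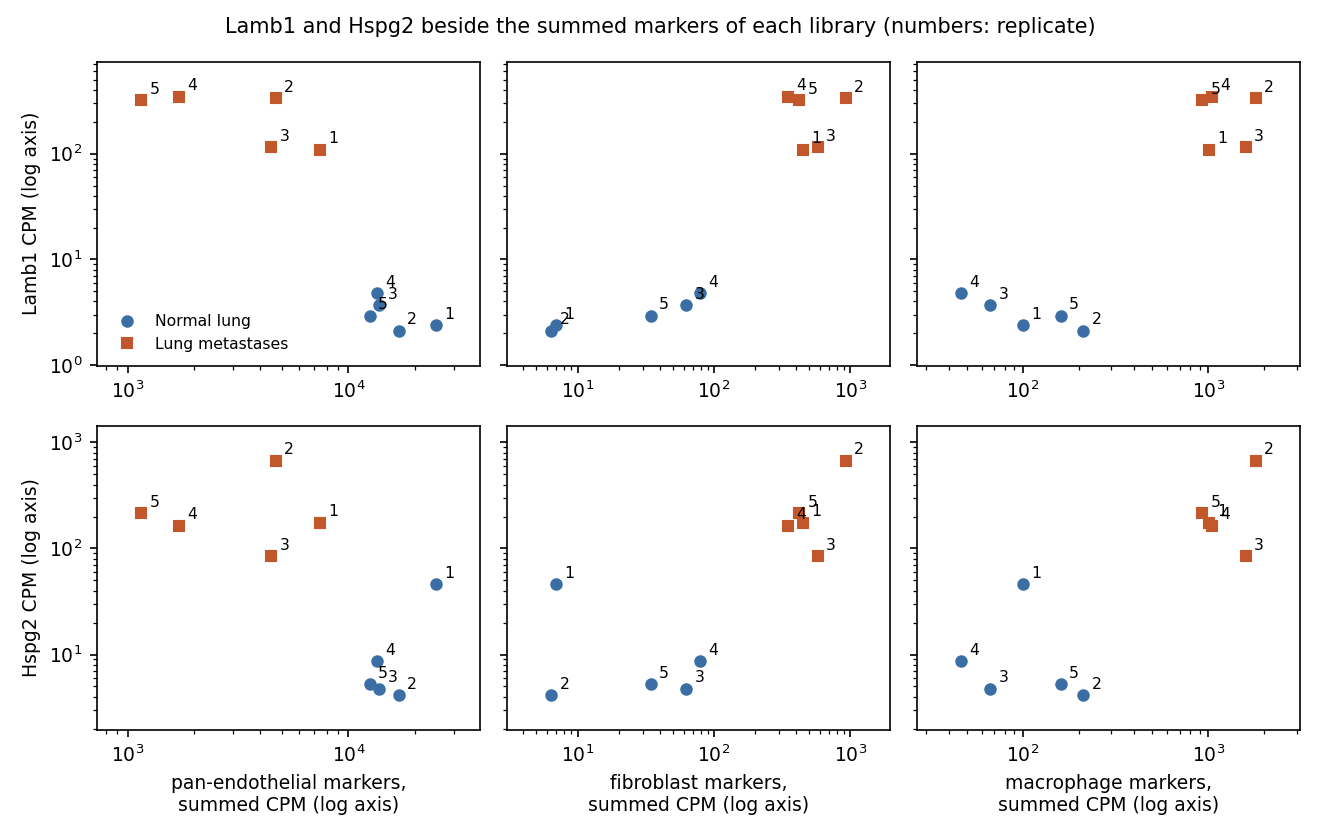
CPM of Lamb1 (top) and Hspg2 (bottom) against the summed CPM of pan-endothelial, fibroblast and macrophage markers, all on log axes, 1 numbered point per library in blue for normal lung and orange for metastases. Metastasis libraries lie at lower endothelial and higher fibroblast and macrophage sums, with 109 to 346 CPM of Lamb1 and 84.8 to 673 CPM of Hspg2.

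On the FPKM scale the mean levels in normal lung were, in descending order, those of Nid1 (311), Lamc1 (55.0), Lamb2 (16.1), Lama5 (13.1), Hspg2 (1.80), Lama4 (1.51), Nid2 (1.34), Lamb1 (0.830), Lama3 (0.396) and Lama2 (0.261). Ranges of neighbours in this order did not overlap between Nid1 and Lamc1 or between Lamc1 and Lamb2, and they overlapped for all other neighbours. In metastases the order was Nid1 (384), Lamc1 (115), Lamb1 (51.0), Hspg2 (33.2), Lama5 (8.86), Lama4 (6.47), Lamb2 (4.98), Nid2 (0.695), Lama3 (0.262) and Lama2 (0.0160). Here neighbours were separate only between Nid1 and Lamc1 and between Hspg2 and Lama5. Lamb1 thus went from the eighth to the third place and Hspg2 from the fifth to the fourth, while Lamb2 went from the third to the seventh. Among all 24460 genes, the mean FPKM of Lamb1 ranked 10907th in normal lung and 1244th in metastases. Hspg2 ranked 9597th and 2058th, and Lamc1 983rd and 382nd. The summed beta chains came to 16.9 ± 6.58 FPKM in normal lung and 56.0 ± 16.5 FPKM in metastases, and the summed alpha chains to 15.3 ± 11.5 and 15.6 ± 9.63 FPKM (SD, n = 5 each). Lamc1 RNA exceeded the mean sum of the beta chains and that of the alpha chains in both groups.

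**Figure D4:**
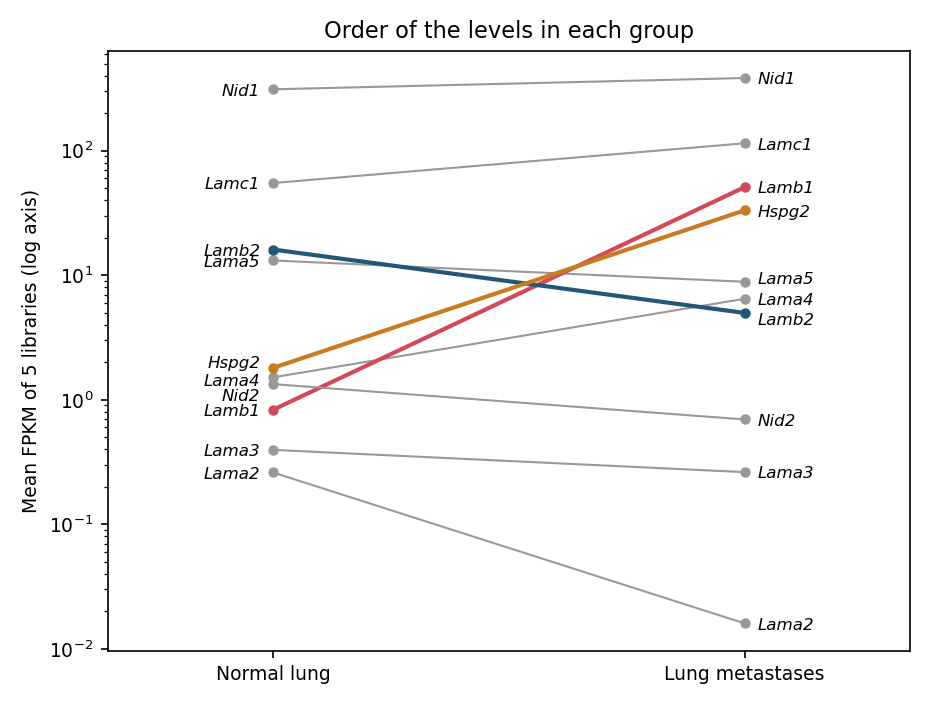
Mean FPKM of 5 libraries on a log axis for each of the 10 genes, with a line from normal lung to metastases. Nid1 and Lamc1 lead both groups, Lamb1 goes from 0.830 to 51.0 FPKM and Hspg2 from 1.80 to 33.2, and the line of Lamb2 goes from 16.1 to 4.98.

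Other laminin chain genes outside the 10 were scarce. Lamc3, a further gamma chain, went from 6.69 ± 7.65 to 0.165 ± 0.0679 CPM (SD, n = 5 each), a log2 fold change of -5.31 ± 1.61 (SE, edgeR adjusted p 0.0209). That call was lost without normal replicate 1 (-4.58, edgeR adjusted p 0.0571) and with metastases 4 and 5 left out (-5.40, 0.0925). Lama1, an alpha chain of early basement membranes, had a log2 fold change of 1.17 ± 1.34 (SE, edgeR adjusted p 0.603) and was not called. Lamb3, a beta chain of epithelial laminins, was too low for a test, at a mean of 0.00522 CPM in normal lung and 0.233 CPM in metastases.

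No gene was called among the other basement membrane components, 12 of 16 of which were tested, with a median log2 fold change of -0.32. At an unadjusted p under 0.05, edgeR found 2 higher and 2 lower, and DESeq2 called 1 higher and 1 lower. Collagen IV, the other network of the membrane, is encoded in vessels by Col4a1 and Col4a2. Col4a2 was at 1027 ± 207 CPM in normal lung and 474 ± 350 CPM in metastases (n = 5 each, SD), with a log2 fold change of -1.11 ± 0.46 (SE, edgeR adjusted p 0.0896). Col4a1 was at 899 ± 289 and 519 ± 346 CPM, with a log2 fold change of -0.79 ± 0.42 (SE, edgeR adjusted p 0.199). Col4a2 passed with limma on log2(FPKM + 1) (-1.58, adjusted p 0.0379), with library totals (-1.02, edgeR adjusted p 0.0497), with a term for libraries 1 and 2 (-1.20, 0.0493) and with no filter on low counts (-1.16, 0.0440). It also passed without metastasis replicate 1 (-1.51, edgeR adjusted p 0.0247) or 3 (-1.34, 0.0493), and Col4a1 passed without metastasis replicate 3 (-1.17, 0.0419). Without metastasis replicate 4 or 5, Col4a2 moved the other way (-0.89 and -0.86, edgeR adjusted p 0.202 and 0.178). With metastases 4 and 5 both left out, Col4a2 was -0.58 and Col4a1 -0.37 (edgeR adjusted p 0.346 and 0.609). Those 2 libraries had the lowest endothelial marker level. With libraries scaled to the pan-endothelial markers both were above 0, Col4a2 at 1.10 and Col4a1 at 1.66 (edgeR adjusted p 0.0615 and 0.00735), against a shift of 2.73 in all genes.

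Of 12 laminin receptor genes, 11 were tested, 3 were higher and 2 lower, and the median log2 fold change was 0.26. Itgb4, the integrin beta chain of hemidesmosomes, went from 1.05 ± 0.306 to 43.1 ± 80.7 CPM and was higher by 5.36 ± 1.24 on the log2 scale (SE, edgeR adjusted p 0.00316). Metastasis replicate 2 was at 187 CPM while the median of its group was 5.08 CPM, and without it the log2 fold change was 2.74 (edgeR adjusted p 0.150). Sdc1, the heparan sulfate proteoglycan syndecan 1, was higher by 3.99 ± 1.14 (SE, edgeR adjusted p 0.0146), and lost the call with metastases 4 and 5 left out (3.18, 0.119). Rpsa, a ribosomal protein also described as a laminin receptor, was higher by 3.23 ± 0.94 (SE, edgeR adjusted p 0.0168), and this gene has many near-identical pseudogenes, which makes its counts uncertain. The call was lost with metastases 4 and 5 left out (3.21, edgeR adjusted p 0.0712). In libraries 3 to 5 alone, where fewer samples enter, Itgb4, Sdc1 and Rpsa all missed the threshold (edgeR adjusted p 0.211, 0.127 and 0.0643). Rpsa is named here to complete the count of 3, after its values were seen.

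Bcam, the Lutheran receptor for laminins with the Lama5 chain, went from 242 ± 103 to 38.2 ± 43.7 CPM (SD, n = 5 each), a log2 fold change of -2.67 ± 0.64 (SE, edgeR adjusted p 0.00442). All 5 metastasis libraries were below all normal ones, with 113 CPM as the highest and 126 CPM as the lowest facing value. Without metastasis replicate 3 the log2 fold change was -3.65 (edgeR adjusted p 0.000127), and in libraries 3 to 5 alone it was -2.07 and no longer called (0.157). Itga3, an integrin alpha chain that binds the same laminins, went from 549 ± 342 to 166 ± 154 CPM, a log2 fold change of -1.73 ± 0.54 (SE, edgeR adjusted p 0.0257). The call on Itga3 was lost without normal replicate 1 (edgeR adjusted p 0.0993), normal replicate 2 (0.0530) or metastasis replicates 3, 4 or 5 (0.0501, 0.0611 and 0.0586), and with metastases 4 and 5 both left out (0.136). The pan-endothelial sum was lower in the same 5 libraries. With libraries scaled to the median level of those markers, the log2 fold change of Bcam was -0.32 and that of Itga3 0.71 (edgeR adjusted p 0.719 and 0.281). That scaling shifted all genes by 2.73, and both genes lay below this shift.

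**Figure D5:**
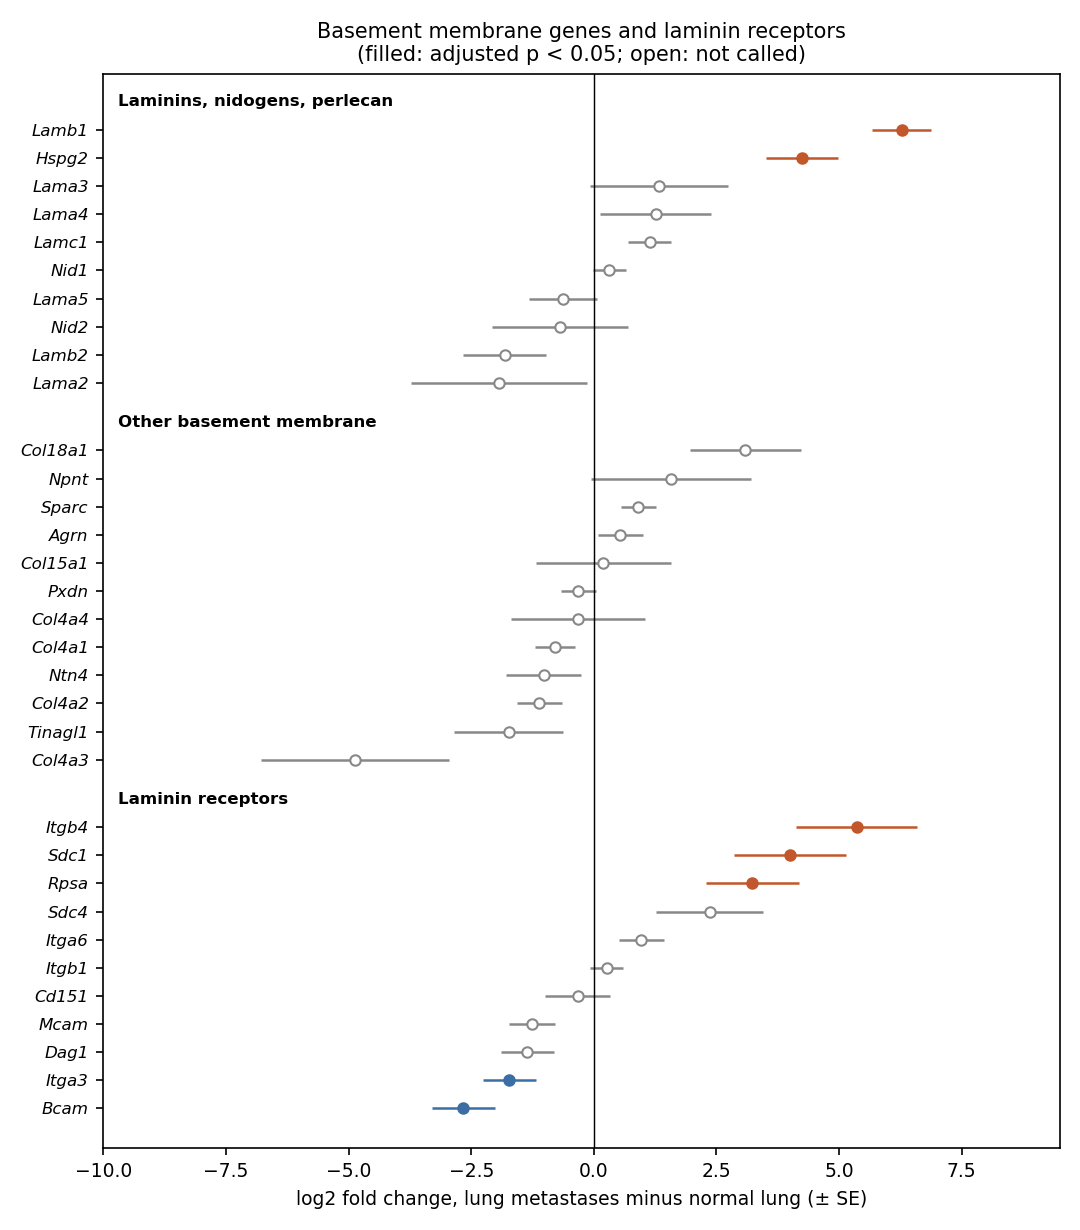
Log2 fold change, metastases minus normal lung, ± SE from edgeR on 5 libraries each, for the tested genes of 3 lists, with filled points for called genes. Lamb1 at 6.27 and Hspg2 at 4.24 lead the first list, the other basement membrane components have open points throughout, and the receptors hold 3 called above 0 and 2 below.

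Genes that build the sugar on dystroglycan to which laminin alpha chains bind showed no call in 7 tested of 8, with a median log2 fold change of -0.47. None had an unadjusted edgeR p under 0.05, and DESeq2 called none. Of 16 genes that make or edit heparan sulfate, the chain carried by perlecan, 14 were tested, none was higher and 1 was lower, with a median log2 fold change of 0.04. At an unadjusted p under 0.05, edgeR found 2 higher and 1 lower, and DESeq2 called 1 in each direction. The called gene was Hs3st1, a sulfotransferase that adds the modification bound by antithrombin, at 38.8 to 69.1 CPM in normal lung and 0.635 to 7.88 CPM in metastases. Its log2 fold change was -3.89 ± 0.84 (SE, edgeR adjusted p 0.00188), and no metastasis library reached the lowest normal one. With libraries scaled to the pan-endothelial markers it was -1.31 (edgeR adjusted p 0.284), against a shift of 2.73 in all genes.

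The median pan-endothelial marker of the metastasis libraries stood at 6.32 to 35.2% of its normal mean. When libraries were scaled to these markers, the median log2 fold change of all genes moved by 2.73, and 7113 of the 11823 tested genes were called higher, beside 7 of these 10, so that this count says nothing particular of them. Under this scaling Lama2, Lama5, Lamb2 and Nid2 had positive log2 fold changes of 1.26, 2.42, 0.62 and 2.51 in place of negative ones. Relative to the shift of all genes, these 4 lay below it, while Lamb1 at 9.26 and Hspg2 at 7.19 stayed above it. The Lamb1 to Lamb2 ratio is untouched by any such scaling.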

How the data were processed

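Total RNA of sorted lung cells was made into libraries with an amplification kit and read as pairs of 100 bases. The counts are raw whole numbers per gene deposited by the authors, and TopHat2 2.0.13, HTSeq 0.6.1, DESeq2 1.6.3 and Cufflinks 2.2.1, with mm10 and GRCm38 as builds, are named in the submitters' processing notes. The FPKM table, also deposited by the authors, scales fragments by transcript length and depth for 24460 genes. The annotation used and the strand setting were not given in the sources used here.

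Counts were filtered with filterByExpr at its defaults, scaled by TMM and compared with the quasi-likelihood F test of edgeR 4.0.16 (robust, no covariate, all 10 libraries) in R 4.3.3, two-sided, with Benjamini-Hochberg adjustment over 11823 genes and a threshold of 0.05. HTSeq categories that name no gene were left out. The share of tallied reads assigned to genes was 24.3 to 34.4% in normal lung and 14.6 to 28.2% in metastases. Metastasis replicate 2 was at 28.2%, and every other metastasis library was below all normal ones. The part of this difference in the results was not tested. Standard errors were approximated by dividing the size of each log2 fold change by the root of its F. The common biological coefficient of variation was 1.01, which limits precision more than depth does. The fit was tested on simulated data. Ratios of 2 genes used log2 of counts plus 0.5. Levels of the 10 genes were compared with each other on FPKM only. The highest markers per cell type were picked by mean CPM, which does not divide by transcript length, so their order can differ on FPKM.

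The genes and lists were chosen with earlier results of these data known. Named were all 10 genes, Pecam1 and Ptprc, the 2 largest called changes each way in each list or, with no call, the 2 genes of highest CPM, the 2 highest markers per cell type, and the 5 genes most like the member of highest FPKM. Some genes that this rule names are not reported here. Same-numbered libraries correlated at 0.000682 to 0.142 after group means were subtracted, which does not settle whether they are paired. Alternatives were DESeq2 1.42.0, limma 3.58.1 on log2(FPKM + 1) and log2(FPKM + 0.1), other scalings, filters, a stricter threshold, a replicate block, and subsets of libraries. Positions are from GENCODE M21 (GRCm38). Plots were made in Python 3.11.15 with matplotlib 3.10.9.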

Additional observations from a re-analysis of the deposited data

Results flagged for a closer look

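The CPM of the 10 genes and the 3 count ratios were checked in each group of 5 libraries for 1 library far from the rest. Of 26 groups checked, 7 had such a library, none of them for a ratio. For normally distributed values chance alone flags about 1 in 20 groups. The CPM were checked without a log transform, so that rate need not hold for them, and all 7 flagged libraries were high ones. Lama2 stood at 11.2 CPM in normal replicate 3, against 0 to 0.490 CPM in the other normal libraries, and at 2.64 CPM in metastasis replicate 5, against 0 to 0.397 CPM. In metastasis replicate 1, Lama3 was at 18.1 CPM against 0.546 to 3.21 CPM in the rest of its group. The same library held Lama4 at 123 CPM against 0.744 to 35.6 CPM. Lamb2 in metastasis replicate 3 was at 58.2 CPM, while the others of that group were at 2.26 to 13.4 CPM. Hspg2 was at 46.2 CPM in normal replicate 1 against 4.17 to 8.71 CPM, and at 673 CPM in metastasis replicate 2 against 84.8 to 214 CPM. Both of these Hspg2 libraries left the 2 groups separate.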

How the results depend on the processing

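Lamb1 and Hspg2 were higher and past the threshold under all 23 alternatives that give a log2 fold change, between 4.75 and 9.26 (edgeR, DESeq2 or limma adjusted p 2.95e-33 to 0.000207) and between 3.57 and 7.19 (8.63e-09 to 0.00778). Scaling to the pan-endothelial markers gave 7113 genes higher and 18 lower, 7 of the 10 members higher, and log2 fold changes of 1.26 for Lama2, 2.42 for Lama5, 0.62 for Lamb2 and 2.51 for Nid2. Libraries 1 and 2 alone gave 487 higher and 201 lower, an adjusted p of 0.01 gave 869 and 453, and leaving out metastases 4 and 5 gave 527 lower. Libraries 3 to 5 alone gave -0.10 for Lama3, -1.57 for Lama4, 0.52 for Lama5 and a Lamb1 to Lamb2 difference of 7.90 (exact permutation test, adjusted p 0.300), where 3 libraries against 3 cannot pass. A term for libraries 1 and 2 gave -0.15 for Lama4. One member, Lamb2, was lower with limma on FPKM at either pseudocount (1 and 1) and with the replicate block (1). Leaving out single libraries gave 0 to 1 members lower (the 1 being Lamb2 without metastasis replicate 3) and log2 fold changes of -4.32 to 1.50 for Lama2, -0.56 to 1.94 for Lama3, -0.27 to 1.68 for Lama4 and -1.05 to 0.0104 for Lama5. The Lama4 to Lama5 difference ranged from -1.08 to 1.11, and it was 0.32 on FPKM and -2.62 in libraries 3 to 5 alone. The causes of these shifts were not tested beyond the samples left out. The share of higher genes among called ones was 59.4%, and it was 51.7 and 51.3% with limma on FPKM, 67.6% with library totals, 70.8% in libraries 1 and 2, 68.3% without metastases 4 and 5 and 99.7% with the endothelial scaling.

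With the replicate block, 1435 genes were higher and 1180 lower. Lamb2 was at -2.69 (edgeR adjusted p 0.0206) and Lamc1 at 1.11 (0.0115), both called, and Lamb1 and Hspg2 kept their calls. Col4a2 (-1.51, edgeR adjusted p 0.000936) and Col4a1 (-1.03, 0.0215) were called lower with the block, and Lamc3 lost its call (-3.98, 0.157). The Lamb1 to Lamb2 difference was 8.67 over the 5 pairs (exact permutation test of signs, adjusted p 0.1875), a test that cannot pass with 5 pairs. Not every library correlated best with its own number.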

Other observations

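After group means were subtracted, some of the 10 genes varied together over the 10 libraries. Pearson's r of log2 CPM was -0.84 between Lamb1 and Lamb2, so that libraries with more of one beta chain had less of the other within their group as well. It was 0.78 between Lama5 and Lamc1, 0.71 between Lamc1 and Hspg2, 0.65 between Lama5 and Hspg2 and -0.66 between Lamc1 and Nid1. These values describe 10 libraries that share differences in depth and cell content, and no test was made of them. The genes whose log2 CPM followed Nid1 most closely over the 10 libraries were Ncoa6 (r = 0.943), Gclc (0.929), Top2b (0.918), Calm2 (0.917) and Rock2 (0.913), none of which was called between the groups.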
